A study of Homo sapiens with 16 samples.

Results

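The transcripts followed here belong to 10 genes with which the enterocyte takes up dietary fat and packs it into lipoproteins: the apolipoproteins APOA1, APOA4, APOB and APOC3, the transfer protein subunit MTTP, the fatty acid binding proteins FABP1 and FABP2, and the acyltransferases DGAT1, DGAT2 and MOGAT2. They were taken by symbol, as 10 of the 61228 gene rows of each deposited table of counts. The set was chosen with earlier results of these data known, so counts of its changed genes are not independent of those results. All 10 passed the filter on low counts. The samples were 16 cultures of Caco-2 cells, which derive from a human colon carcinoma and differentiate into an enterocyte-like layer, grown in a villus-on-chip moved by magnets and labelled as epithelial cells of the intestine. The labels give 4 treatments with 4 replicates each, namely a static control, swings called physiological and pathological, and an IBD induction (IBD, inflammatory bowel disease). The counts came as 4 tables coded NOS1, VOS1, VOS2 and IBD. IBD was read as the induction, NOS1 as the static control by elimination, and VOS1 and VOS2 as the swings, with no label that says which swing is which. The design calls the induced chips IBD-VOS, so induction and swing cannot be told apart in the comparison of IBD with NOS1, nor in that with VOS2, since neither table's swing is known. The sources used here do not state the inducing agent, its dose or its duration. The replicates are called biological, but nothing says that they came from separate cultures or days, and p-values then cover only the spread between these samples.

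In the small intestine, fatty acids and monoacylglycerol enter the enterocyte and are carried through the cytosol by fatty acid binding proteins. They are rebuilt into triacylglycerol in the endoplasmic reticulum, where MOGAT2 makes diacylglycerol and DGAT1 and DGAT2 add the last acyl chain. The microsomal triglyceride transfer protein, whose large subunit MTTP encodes, loads this lipid onto apolipoprotein B, and the particle leaves as a chylomicron or, in Caco-2, as a lipoprotein of similar build. Apolipoproteins A-I, A-IV and C-III travel on its surface.

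NOS1, VOS2 and IBD held 15078620 to 20609117 counts a library and VOS1 held 21868713 to 28148186. The gene lengths implied by the counts and the deposited FPKM (fragments scaled to gene length and library size) were those of the whole gene span in NOS1, VOS2 and IBD. In VOS1 they were shorter, at 17.9% of the span-based length in the median of 11314 genes. VOS1 was therefore kept out of every test and is shown apart. All 11 enterocyte markers were detected, and their summed level was between 1990 and 2930 CPM (counts scaled to the library total) in every library. The brush border protein villin (VIL1) averaged 582 CPM in NOS1, 575 in VOS2, 538 in IBD and 827 in VOS1. Single cell type markers that changed in IBD are given beside the lipid genes. The leukocyte list summed to 18.0 to 20.4 CPM in NOS1 and VOS2 and to 33.5 to 35.4 CPM in IBD, where lysozyme (LYZ) alone averaged 24.6 CPM and 3 of its 8 genes reached 1 CPM. Its defining gene PTPRC was at 0 in all NOS1 libraries and at most at 0.184 CPM in IBD, and CD68 was at 0 in all IBD libraries. The lipid genes are also genes of the liver. The 12 hepatocyte markers summed to 859 to 1280 CPM in NOS1, VOS2 and IBD, most of it SERPINA1 (means of 800, 810 and 1004 CPM). ALB averaged 2.62, 3.10 and 2.32 CPM, and AHSG and HP were at 0. AHSG, HP, PTPRC and CD68 each overlap another gene. In VOS1 no gene of the hepatocyte or leukocyte list was at 0 in all libraries. The part of counting over whole gene spans in these zeros was not tested, so they are not read as absence.

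RefSeq promoters (GRCh38.p14) matched 4 of the 10 genes: FABP1, APOA4, MTTP and FABP2. The 250 bases before the start are printed for 3 genes whose mean was higher in IBD and, for contrast, for FABP2, whose mean changed little. Capitals mark motifs found by their letters: TATAAA (as in the TATA box, gene strand only), and on either strand GTTAAT (as in sites of HNF1), AGGTCA (as in sites of nuclear receptors), AAAGTCCA (as in sites of HNF4) and ACGTG (the core of sites of hypoxia-inducible factor). No marked motif overlaps another. The FABP1 window is chr2:88128063-88128312 on the minus strand, that of APOA4 chr11:116823305-116823554 on the minus strand, that of MTTP chr4:99574574-99574823 on the plus strand and that of FABP2 chr4:119322139-119322388 on the minus strand.
FABP1: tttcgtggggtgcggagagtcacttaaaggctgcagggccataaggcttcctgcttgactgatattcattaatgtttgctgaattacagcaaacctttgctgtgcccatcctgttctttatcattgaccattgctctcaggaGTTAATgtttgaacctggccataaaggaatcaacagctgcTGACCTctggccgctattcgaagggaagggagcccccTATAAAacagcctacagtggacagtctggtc
APOA4: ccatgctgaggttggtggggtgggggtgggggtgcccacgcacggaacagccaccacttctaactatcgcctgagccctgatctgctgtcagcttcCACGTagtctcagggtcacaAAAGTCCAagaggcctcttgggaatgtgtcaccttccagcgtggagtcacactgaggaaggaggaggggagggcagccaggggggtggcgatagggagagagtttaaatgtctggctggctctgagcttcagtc
MTTP: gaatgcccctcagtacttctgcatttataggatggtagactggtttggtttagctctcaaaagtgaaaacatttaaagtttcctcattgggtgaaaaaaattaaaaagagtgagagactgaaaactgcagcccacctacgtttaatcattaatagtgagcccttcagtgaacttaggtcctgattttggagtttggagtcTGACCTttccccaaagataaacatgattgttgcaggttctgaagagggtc
FABP2: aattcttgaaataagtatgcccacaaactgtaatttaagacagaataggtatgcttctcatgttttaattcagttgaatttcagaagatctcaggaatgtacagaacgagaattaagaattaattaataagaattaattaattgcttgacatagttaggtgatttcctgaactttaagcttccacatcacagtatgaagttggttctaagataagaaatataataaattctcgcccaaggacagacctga

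In FABP1 the TATA box lies 31 to 26 bases before the start, GTTAAT at 108 to 103 and AGGTCA, read on the opposite strand, at 68 to 63. In APOA4 the letters AAAGTCCA lie at 134 to 127 and ACGTG, on the opposite strand, at 154 to 150. MTTP has AGGTCA on the opposite strand at 50 to 45. A second RefSeq start of MTTP, with its window at chr4:99563880-99564129, held none of the 5 motifs, nor did the FABP2 window. Among 35116 RefSeq windows of this length, 6.8% held TATAAA, 6.23% GTTAAT, 12.1% AGGTCA, 0.98% AAAGTCCA and 18.5% ACGTG. These matches describe the letters and say nothing of binding.

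The swing table VOS2 was compared with the static table NOS1, which asks whether movement of the chip without induction goes with a change in these transcripts. None of the 10 genes passed the threshold. The standard error in log2 lay between 0.08 for DGAT2 and 0.59 for APOA4, and differences well above their standard error could be missed. ACSL1, of a list given below, did not pass at a log2 fold change of -1.29 ± 0.41 (edgeR adjusted p = 0.321). Log2 fold changes lay between -0.19 for APOA4 and 0.08 for APOB, and adjusted p-values between 0.897 and 0.999 (edgeR quasi-likelihood test, adjusted by Benjamini-Hochberg over all genes). Of all 14773 tested genes, 0 (0%) passed an adjusted p of 0.05, while 1457 had an unadjusted p below 0.05 and DESeq2 called 6. Without NOS1 replicate 3, 376 genes passed, 0 of the 10 among them. Libraries of VOS2 and NOS1 were fully separated for 0 of the 10 genes, against 4.58% of all genes.

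IBD was then set against VOS2 and against NOS1, both counted over the same features as IBD. These comparisons share the IBD libraries, so their values are given side by side. FABP1, APOA4 and APOC3 were higher in IBD in both, and the other 7 genes did not pass. In IBD against VOS2 that is 3 of 10 higher and 0 lower, where 4.56% of all genes passed in either direction (343 higher and 331 lower). In IBD against NOS1 it is again 3 of 10 higher and 0 lower, where 5.81% of all genes passed (414 higher and 444 lower). The median log2 fold change of the 10 genes was 0.51 against VOS2 and 0.46 against NOS1, beside -0.01 and -0.02 over all genes tested. FABP1 was the 1 gene of the 10 whose IBD libraries all lay above those of the other table. Such separation, in either direction, was seen in 12.8% of all genes against VOS2 and in 10.2% against NOS1. Of the 11 enterocyte markers, the peptidase DPP4 was lower in IBD in both comparisons (298 CPM against 499 in VOS2 and 449 in NOS1, edgeR adjusted p = 0.00251 and 0.0125). The glucose transporter SLC5A1 and the peptide transporter SLC15A1 were 3.67-fold and 2.18-fold higher than in NOS1 (0.0177 and 0.0443) and did not pass against VOS2 (0.0823 and 0.076). Of 8 tested hepatocyte markers, the fibrinogen chain FGA was lower in both comparisons (14.4 CPM against 27.7 and 36.4, edgeR adjusted p = 0.0373 and 0.00541) and FGG lower than in NOS1 (5.24 against 14.5 CPM, 0.00748). Of 3 tested leukocyte markers, LYZ, which is also on the Paneth cell list, was higher in both comparisons (edgeR adjusted p = 3.97e-06 and 3.35e-05). CD14 was lower than in VOS2 (2.7 against 4.62 CPM, 0.0169) and did not pass against NOS1 (0.0547). ITGAM was higher than in NOS1 (7.18 against 4.93 CPM, 0.0493) and did not pass against VOS2 (0.439). Of 3 tested fibroblast markers, LUM was lower in both comparisons (edgeR adjusted p = 0.0128 and 0.0216). The 1 tested enteroendocrine marker, CHGB, was also lower in both (0.0274 and 0.0372). None of 2 tested goblet and 2 tested endothelial markers passed. The part of these markers in the lipid gene result was not tested. In bulk RNA, more cells of a type and more RNA per cell cannot be told apart.

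**Figure D1:**
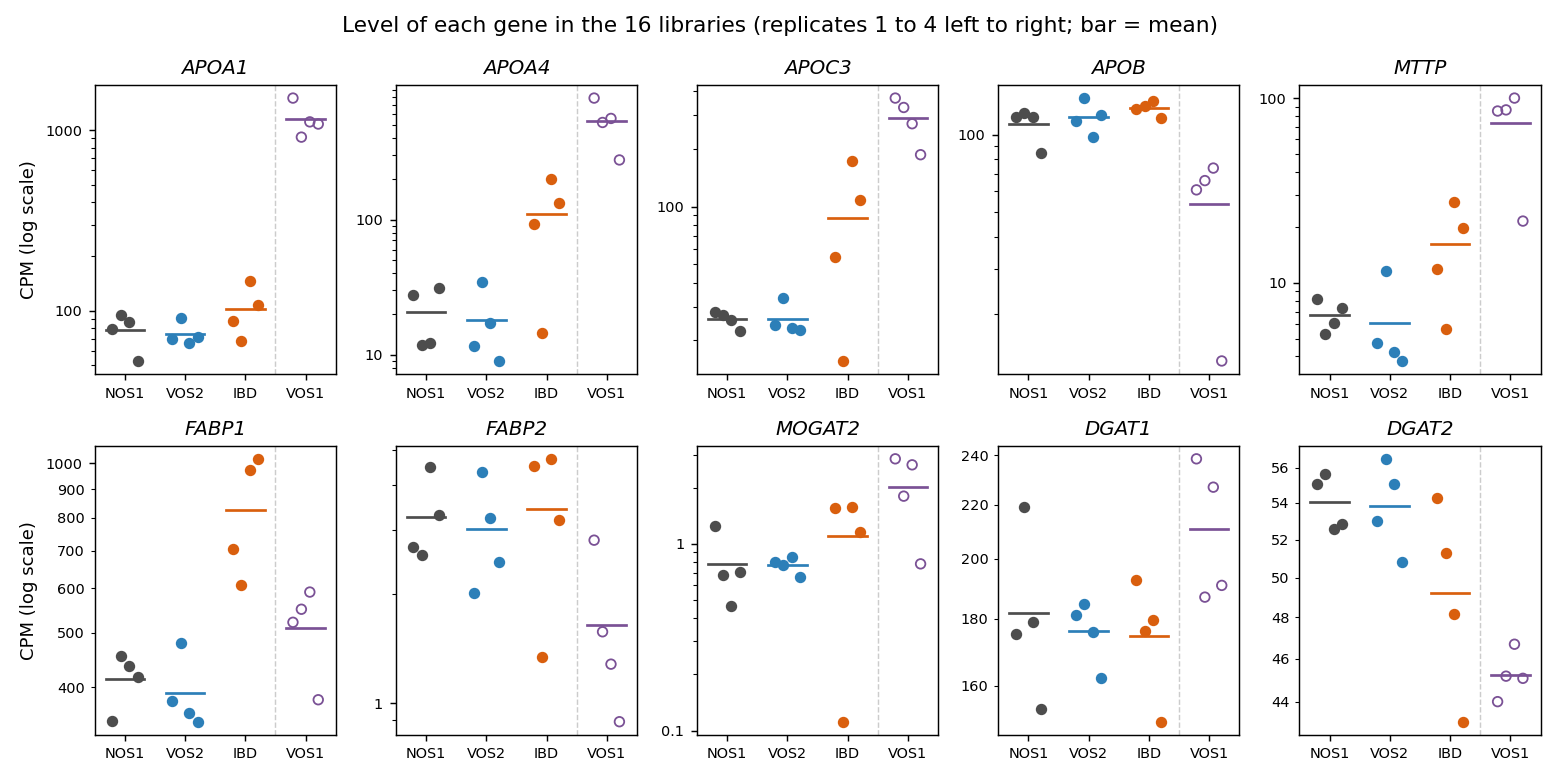
Level of each of the 10 genes (CPM, log scale, each panel with its own range) in the 16 libraries; points are replicates 1 to 4 from left to right, bars are means, and VOS1, counted over shorter features, stands right of the dashed line. FABP1 in IBD sits between 607 and 1019 CPM, above all NOS1 and VOS2 libraries, while IBD replicate 2 is the lowest IBD library for 7 of the 10 genes.

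FABP1, liver-type fatty acid binding protein, buffers fatty acids in the cytosol of enterocytes and hepatocytes. Its gene is on chromosome 2 from 88122982 to 88128116 (GRCh38, GENCODE v29, minus strand, ENSG00000163586.9) and overlaps no other gene. Its level was 348, 456, 437 and 418 CPM in NOS1 replicates 1 to 4. In VOS2 it was 378, 479, 360 and 348 CPM, and in IBD 703, 607, 973 and 1019 CPM. All IBD libraries were above all others, and the lowest of them was replicate 2. The mean rose from 391 ± 60.0 CPM (SD, n = 4) in VOS2 to 826 ± 202 CPM in IBD, a 2.15-fold difference (log2 fold change 1.11 ± 0.16 SE, edgeR adjusted p = 0.00118). Against NOS1, at 415 ± 47.0 CPM, it was 2.02-fold (1.02 ± 0.16, edgeR adjusted p = 0.00259). Without IBD replicates 3 and 4 FABP1 still passed, at a log2 fold change of 0.76 against VOS2 (edgeR adjusted p = 0.0171) and 0.67 against NOS1 (edgeR adjusted p = 0.0423).

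FABP2, the intestinal fatty acid binding protein and a close relative of FABP1, was far lower. Its gene is on chromosome 4 from 119317250 to 119322390 (minus strand) and overlaps no other gene. It was at 2.697, 2.57, 4.49 and 3.30 CPM in NOS1, at 2.01, 4.34, 3.23 and 2.45 CPM in VOS2, and at 4.51, 1.34, 4.71 and 3.19 CPM in IBD. These are 24 to 93 counts a library, and the ranges overlap throughout. The log2 fold change was 0.22 ± 0.34 against VOS2 (edgeR adjusted p = 0.791) and 0.10 ± 0.34 against NOS1 (0.896), and it turned negative in some alternatives. Per length, on the FPKM scale, FABP1 averaged 81.6 and FABP2 0.667 in NOS1, and 163 and 0.703 in IBD.

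APOA4 and APOC3 sit with APOA1 in 1 cluster on chromosome 11 (GRCh38). APOA4 runs from 116820700 to 116823306 and APOA1 from 116835751 to 116837950, both on the minus strand. APOC3 lies between them, from 116829706 to 116833072 on the plus strand. APOC3 overlaps no other gene, whereas 83.4% of the APOA1 span lies under the antisense gene APOA1-AS and 32.3% of the APOA4 span under AP006216.3. Whether strand was used in counting is nowhere stated in the sources used, and counts of these overlapping genes are therefore uncertain. APOA1-AS itself averaged 0.21 to 0.436 CPM in NOS1, VOS2 and IBD. No level was listed for AP006216.3 under that name.

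Apolipoprotein A-IV, which the intestine secretes on chylomicrons after a fatty meal, had the largest fold change of the 10 genes. APOA4 was at 27.7, 11.8, 12.3 and 31.4 CPM in NOS1 replicates 1 to 4. It was at 11.6, 34.5, 17.3 and 9.02 CPM in VOS2, and at 92.2, 14.4, 200 and 133 CPM in IBD. IBD replicates 1, 3 and 4 were above all NOS1 and VOS2 libraries, and replicate 2 lay within their range. The mean was 110 ± 77.5 CPM (SD, n = 4) in IBD, 18.1 ± 11.5 CPM in VOS2 and 20.8 ± 10.2 CPM in NOS1. The difference was 6.16-fold against VOS2 (log2 fold change 2.62 ± 0.60 SE, edgeR adjusted p = 0.0225) and 5.38-fold against NOS1 (2.43 ± 0.59, edgeR adjusted p = 0.0289).

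Apolipoprotein C-III, an inhibitor of lipoprotein lipase, showed the same split among the IBD libraries. APOC3 was steady in NOS1, at 28.2, 27.0, 25.7 and 22.5 CPM, and in VOS2, at 24.2, 33.3, 23.1 and 22.6 CPM. In IBD it was at 54.6, 15.6, 173 and 108 CPM. IBD replicate 2 was thus the lowest of the 12 libraries and the other 3 the highest. The mean of 87.7 ± 68.1 CPM in IBD was 3.46-fold that of VOS2 (log2 fold change 1.79 ± 0.46 SE, edgeR adjusted p = 0.0398) and 3.45-fold that of NOS1 (1.79 ± 0.46, edgeR adjusted p = 0.0362).

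Both calls rest on few libraries. Without IBD replicates 3 and 4 the log2 fold change against VOS2 was 1.57 for APOA4 (edgeR adjusted p = 0.281) and 0.46 for APOC3 (0.613), and against NOS1 1.37 (0.341) and 0.46 (0.586). Both genes lost the call against VOS2 when IBD replicate 3 or 4 or VOS2 replicate 1, 3 or 4 was left out, and APOC3 also without VOS2 replicate 2. Against NOS1 both lost it without IBD replicate 3 or 4 or NOS1 replicate 2 or 4, and APOC3 also without NOS1 replicate 1. Over all alternatives APOA4 passed in 10 of 19 against VOS2 and 11 of 20 against NOS1, with adjusted p from 9.76e-05 to 0.281 and from 0.000272 to 0.341. APOC3 passed in 8 of 19 and 9 of 20, with adjusted p from 0.000366 to 0.613 and from 0.000544 to 0.586. FABP1 passed in 19 of 19 and 20 of 20, with adjusted p from 7.77e-10 to 0.0171 and from 3.18e-08 to 0.0423.

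Apolipoprotein A-I, the main protein of high density lipoprotein, was at 79.0, 95.3, 87.3 and 52.8 CPM in NOS1. APOA1 was at 69.5, 91.3, 66.7 and 72.0 CPM in VOS2 and at 88.1, 67.9, 147 and 107 CPM in IBD. Only IBD replicates 3 and 4 were above all the others. The log2 fold change was 0.48 ± 0.21 against VOS2 (edgeR adjusted p = 0.236) and 0.40 ± 0.21 against NOS1 (0.277), and it did not pass.

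APOB encodes the structural protein of chylomicrons, of which the intestine makes a truncated form by editing of the mRNA. The gene is on chromosome 2, minus strand, from 21001429 to 21044073, with 1.6% of its span under another gene. APOB was at 117, 122, 117 and 85.0 CPM in NOS1, at 113, 139, 97.5 and 119 CPM in VOS2, and at 125, 129, 135 and 116 CPM in IBD. The ranges overlap, and the IBD libraries stayed close to each other. The log2 fold change was 0.14 ± 0.12 against VOS2 (edgeR adjusted p = 0.599) and 0.22 ± 0.12 against NOS1 (0.293). The IBD libraries differed by 1.16-fold from lowest to highest for APOB, against 13.8-fold for APOA4 and 11.1-fold for APOC3.

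MTTP is on chromosome 4, plus strand, from 99563761 to 99623999, and 48.9% of its span lies under other genes, mainly the antisense gene AC083902.1. No level was listed for AC083902.1 under that name. MTTP was at 8.19, 5.30, 6.09 and 7.30 CPM in NOS1, at 4.72, 11.5, 4.25 and 3.78 CPM in VOS2, and at 11.9, 5.63, 27.4 and 19.9 CPM in IBD. IBD replicates 1, 3 and 4 were above all NOS1 and VOS2 libraries, replicate 1 by little over VOS2 replicate 2, and IBD replicate 2 lay among them. The difference was 2.71-fold against VOS2 (log2 fold change 1.44 ± 0.42 SE) and 2.45-fold against NOS1 (1.29 ± 0.41), with edgeR adjusted p = 0.0652 and 0.0787, short of the threshold. It passed without IBD replicate 2 (edgeR adjusted p = 0.00802 against VOS2 and 0.0131 against NOS1), without VOS2 replicate 2 (0.017 against VOS2) and with no filter on low counts (0.0043 and 0.00911). Without IBD replicate 3 the difference in log2 was 1.08 from VOS2 and 0.93 from NOS1 (edgeR adjusted p = 0.196 and 0.241), and without IBD replicates 3 and 4 it was 0.54 and 0.40 (0.632 and 0.726).

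**Figure D2:**
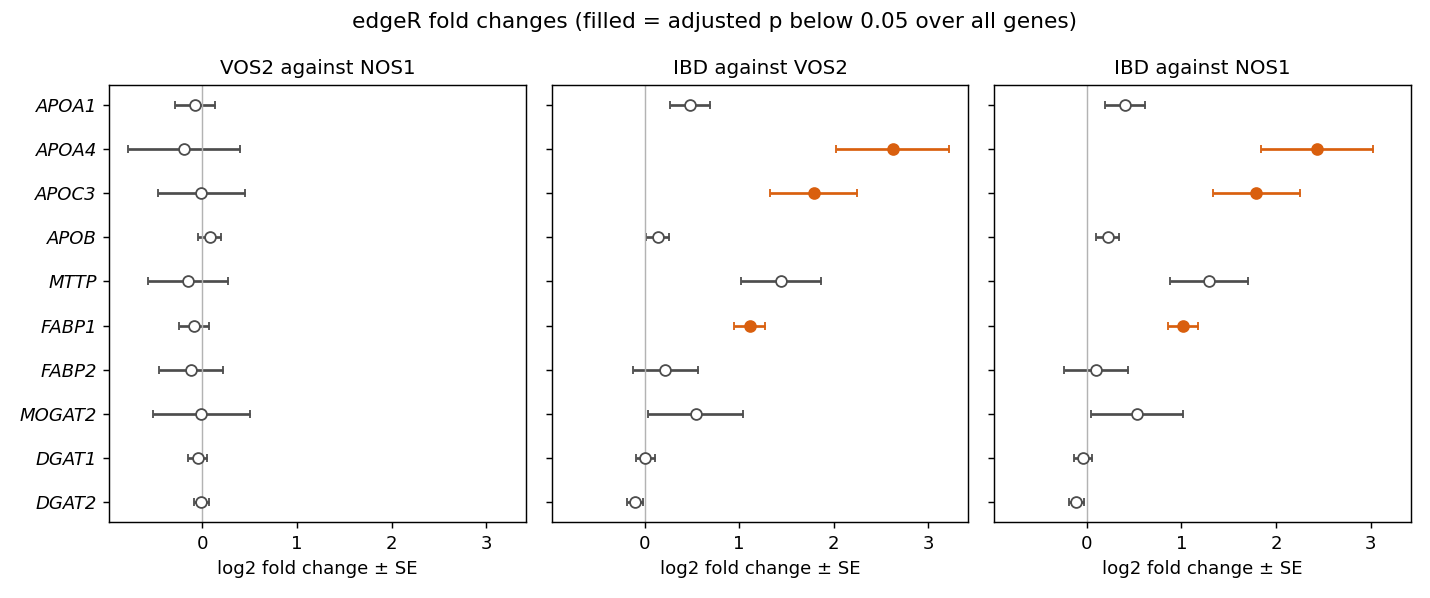
Log2 fold change with its standard error for the 10 genes in the 3 comparisons (edgeR, 4 libraries a table); filled points have an adjusted p below 0.05 over all 14773 genes. FABP1, APOA4 and APOC3 are filled in both comparisons with IBD, and the error of APOA4 (0.60 against VOS2) is wider than that of FABP1 (0.16).

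The acyltransferases did not pass the test in either comparison. DGAT1 is on chromosome 8 from 144314584 to 144326910 (minus strand) and makes triacylglycerol from diacylglycerol. Other genes overlap 5.1% of its span and 13.6% of its exon bases. DGAT1 was at 175, 219, 179 and 154 CPM in NOS1, at 181, 185, 176 and 162 CPM in VOS2, and at 193, 176, 180 and 150 CPM in IBD. Its log2 fold change was 0.01 ± 0.10 against VOS2 (edgeR adjusted p = 0.966) and -0.04 ± 0.10 against NOS1 (0.872), and the sign against VOS2 turned with library size as the only scaling. DGAT2, an unrelated enzyme of the same reaction, is on chromosome 11 (plus strand, 75759512 to 75801535), with 25.7% of its span under other genes. DGAT2 was at 55.1, 55.7, 52.6 and 52.8 CPM in NOS1, at 53.0, 56.5, 55.1 and 50.8 CPM in VOS2, and at 54.3, 51.3, 48.2 and 43.1 CPM in IBD. It had the narrowest spread of the 10 genes in NOS1, and its mean in IBD was slightly lower, at -0.10 ± 0.08 against VOS2 (edgeR adjusted p = 0.528) and -0.11 ± 0.08 against NOS1 (0.427) in log2.

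MOGAT2, which makes diacylglycerol from monoacylglycerol, is a neighbour of DGAT2, at 75717819 to 75732958 on chromosome 11 (plus strand), and overlaps no gene. MOGAT2 was barely detected, at 1.25, 0.684, 0.464 and 0.710 CPM in NOS1, at 0.795, 0.773, 0.850 and 0.663 CPM in VOS2, and at 1.55, 0.112, 1.57 and 1.17 CPM in IBD. In IBD replicate 2 this was 2 counts. The log2 fold change of 0.54 ± 0.50 against VOS2 (edgeR adjusted p = 0.625) and 0.53 ± 0.49 against NOS1 (0.572) was about the size of its error. IBD replicate 2 was the lowest and replicate 3 the highest, as for APOA4 and APOC3, and without replicate 2 the difference in log2 was 0.92 from VOS2 and 0.91 from NOS1 (edgeR adjusted p = 0.111 and 0.0917).

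Per length (mean FPKM over the gene span), the order in NOS1 was FABP1, APOA1, DGAT1, APOA4, APOC3, APOB, DGAT2, FABP2, MTTP and MOGAT2, from 81.6 down to 0.0514. APOA4, from 4.51 to 12.1, and APOC3, from 6.69 to 8.38, overlapped and changed places in VOS2. The levels of all other neighbours, in the order of each table, did not overlap between libraries in NOS1 and VOS2. In VOS2 APOA4, no longer next to DGAT1, reached 13.25, above the lowest DGAT1 value of 13.17. In IBD the means of APOA4 (42.2) and APOC3 (26.04) passed that of DGAT1 (14.2), but the APOA4 range of 5.55 to 76.6 and the APOC3 range of 4.64 to 51.3 still included it. Genes with long introns read low on this scale, since the length is that of the whole gene.

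Within IBD the libraries were ordered alike by APOA1, APOA4, APOC3 and MTTP, with replicate 3 highest, then 4, then 1 and replicate 2 lowest. For FABP1 replicates 4 and 3 were the highest, and again replicate 2 was the lowest. The medians of 2 lists had that order of 3, 4, 1 and 2 as well. They were the enterocyte markers and the targets of hypoxia-inducible factor (HIF), the transcription factor of the low oxygen response. The median of 18 HIF targets, as log2 CPM minus the mean of the 12 libraries, was 0.30, -0.42, 1.34 and 1.11 in IBD replicates 1 to 4. It was between -0.49 and 0.13 in NOS1 and between -0.45 and -0.29 in VOS2. Its highest value in NOS1 was in replicate 1, which was the highest NOS1 library for 3 of the 10 genes and the lowest for FABP1. The median of the enterocyte markers was 0.06, -0.26, 0.47 and 0.13 in the same IBD libraries, from -0.18 to 0.18 in NOS1 and from -0.17 to 0.15 in VOS2. The part of either in the levels of the lipid genes was not tested. In IBD replicate 2, the lowest IBD library for both, the HIF median lay within the VOS2 range. FABP1 was there at 607 CPM, beside 479 CPM in the highest NOS1 or VOS2 library. This is 1 library, and a relation between FABP1 and the HIF targets was not tested. In VOS2, replicate 2 was the highest library for 9 of the 10 genes.

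**Figure D3:**
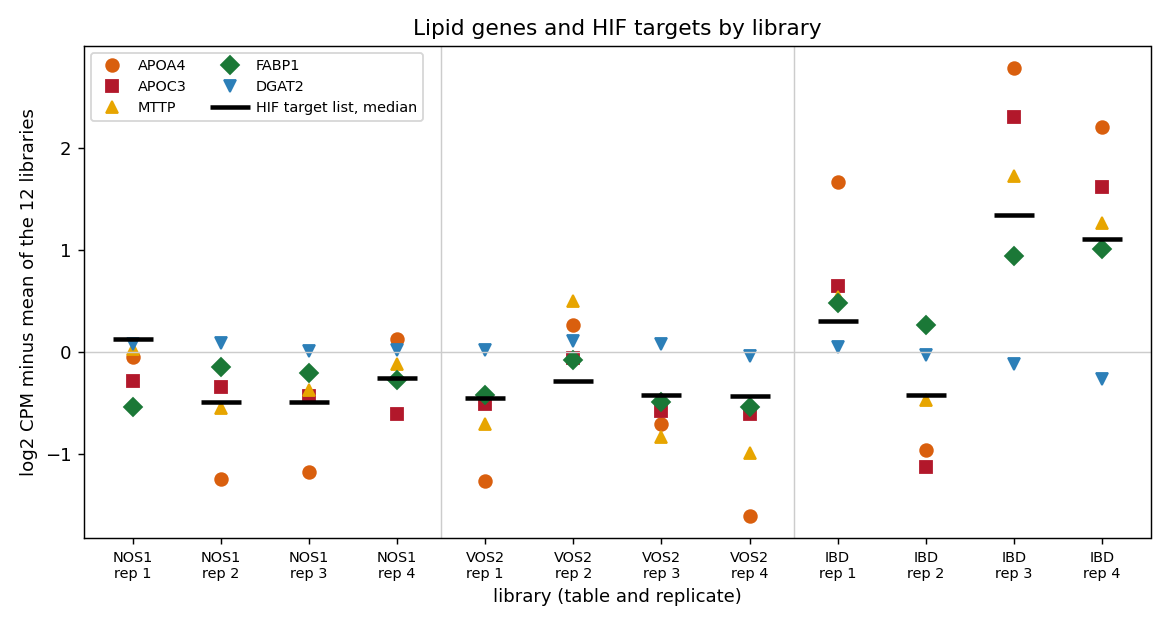
Log2 CPM of APOA4, APOC3, MTTP, FABP1 and DGAT2, and the median of 18 HIF targets (black bars), each minus its mean over the 12 libraries of NOS1, VOS2 and IBD; replicates have no order. In IBD replicates 1 to 4 the HIF median is 0.30, -0.42, 1.34 and 1.11, and FABP1 is 0.48, 0.26, 0.94 and 1.01. APOA4 is 1.67, -0.96, 2.78 and 2.2, and APOC3 is 0.65, -1.13, 2.3 and 1.62.

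HIF targets as a list were higher in IBD for 11 of 18 tested genes against VOS2 and 10 against NOS1, and lower for 0. Of all genes 4.56% and 5.81% passed in either direction. The median log2 fold change of the list was 1.23 and 0.88. IBD libraries were fully separated from VOS2 for 3 of the 18 and from NOS1 for 0, beside 12.8% and 10.2% of all genes. The list gave CA9, ANKRD37, NDRG1, PFKFB4, BNIP3 and PDK1 as its largest changes. NDRG1 averaged 926 ± 795 CPM in IBD, 155 ± 28.4 CPM in VOS2 and 183 ± 89.1 CPM in NOS1. PFKFB4, an enzyme that raises glycolytic flux, was 4.77-fold higher than in VOS2 (edgeR adjusted p = 0.00961), and PDK1, a pyruvate dehydrogenase kinase, 2.97-fold (0.0312). BNIP3, a mitophagy receptor, was 3.59-fold higher (0.0109) and ANKRD37 8.42-fold (0.0123). CA9, a carbonic anhydrase, averaged 4.02 CPM in IBD against 0.119 CPM in VOS2 (0.0287), but missed the threshold against NOS1 (0.0561). All of these but NDRG1 overlap another gene.

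Lists of genes that work beside the 10 are set against the same shares of all genes, 4.56% against VOS2 and 5.81% against NOS1. Of 14 tested genes of uptake and activation, 1 was higher and 0 lower in IBD than in VOS2, and 1 higher and 1 lower than in NOS1. DBI, the acyl-CoA binding protein, rose from 221 ± 3.72 CPM in VOS2 and 235 ± 18.4 CPM in NOS1 to 290 ± 29.8 CPM in IBD (log2 fold change 0.42 and 0.33, edgeR adjusted p = 0.0128 and 0.0402). ACSL1, which activates long-chain fatty acids to acyl-CoA, was 5.47 ± 0.805 CPM in IBD and 19.0 ± 15.8 CPM in NOS1, where libraries ran from 6.50 to 41.1 CPM (log2 fold change -1.76 ± 0.42, edgeR adjusted p = 0.0271). Against VOS2, where it averaged 7.73 ± 1.61 CPM, it did not pass (0.616).

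Of 19 tested genes of re-esterification and lipid droplets, 2 were higher and 1 lower than in VOS2, and 4 higher and 1 lower than in NOS1, with a median log2 fold change of 0.11 and 0.04. GPAM, the mitochondrial enzyme that starts glycerolipid synthesis, fell from 89.1 ± 8.30 CPM in VOS2 and 79.3 ± 7.69 CPM in NOS1 to 50.6 ± 10.2 CPM in IBD (log2 fold change -0.79 and -0.63, edgeR adjusted p = 0.00215 and 0.0111), with no overlap of ranges. SOAT2, which esterifies cholesterol for lipoproteins, rose to 104 ± 9.55 CPM from 66.6 ± 6.00 and 71.3 ± 14.8 CPM (0.68 and 0.57, edgeR adjusted p = 0.00961 and 0.024). The phosphatidate phosphatase LPIN3 was 1.89-fold and 1.88-fold higher (edgeR adjusted p = 0.0398 and 0.0378), with overlapping ranges. PLIN2, a coat protein of lipid droplets, and LPIN1 were higher than in NOS1 (log2 fold change 0.79 and 0.36, edgeR adjusted p = 0.0352 and 0.0362) and did not pass against VOS2 (0.59 and 0.30, adjusted p = 0.115 and 0.0866), and that difference between comparisons was not tested.

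None of the 10 tested genes of lipoprotein assembly and export passed in either comparison, with medians of 0.06 and -0.01. P4HB, the small subunit of the transfer protein that MTTP belongs to, was 658, 647 and 689 CPM in NOS1, VOS2 and IBD. SAR1A, a GTPase of the vesicles that leave the endoplasmic reticulum, was 215, 206 and 202 CPM. Among 7 other apolipoproteins, APOD and CLU fell against VOS2 (log2 fold change -0.78 and -0.69, edgeR adjusted p = 0.0268 and 0.0331) and APOM rose (0.57, 0.0486), while none passed against NOS1. APOA2 averaged 606, 678 and 751 CPM in NOS1, VOS2 and IBD and APOE 482, 529 and 400 CPM, and neither passed.

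Of 18 tested regulators of enterocyte lipid genes, 1 was higher and 1 lower than in VOS2, and 0 higher and 2 lower than in NOS1. NR2F2, an orphan nuclear receptor, fell to 93.3 ± 8.40 CPM in IBD from 145 ± 9.62 CPM in VOS2 and 133 ± 10.9 CPM in NOS1 (log2 fold change -0.61 and -0.49, edgeR adjusted p = 0.000896 and 0.00557). PPARG, a nuclear receptor that binds fatty acids, rose against VOS2 (0.41, 0.0409), and against NOS1 it was at 0.30 (adjusted p = 0.105). The coactivator PPARGC1A was 0.593 CPM in IBD and 3.47 ± 3.32 CPM in NOS1, from 0.929 to 7.94 CPM (-2.52 ± 0.62, edgeR adjusted p = 0.0288). HNF4A, which drives many apolipoprotein genes, was at 681, 691 and 857 CPM in NOS1, VOS2 and IBD and did not pass (adjusted p = 0.149 and 0.107). CDX2 was at 195, 182 and 200 CPM. Of the genes named from these lists, DBI, GPAM, SOAT2, PLIN2, APOA2, APOD and CDX2 overlap no other gene, and counts of the others are uncertain in that respect. In VOS2 against NOS1, 0 genes of any of the 6 lists passed, including the abundant ACSL3, LPIN2, AGPAT3, SLC2A1 and LDHA (adjusted p from 0.553 to 0.908).

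**Figure D4:**
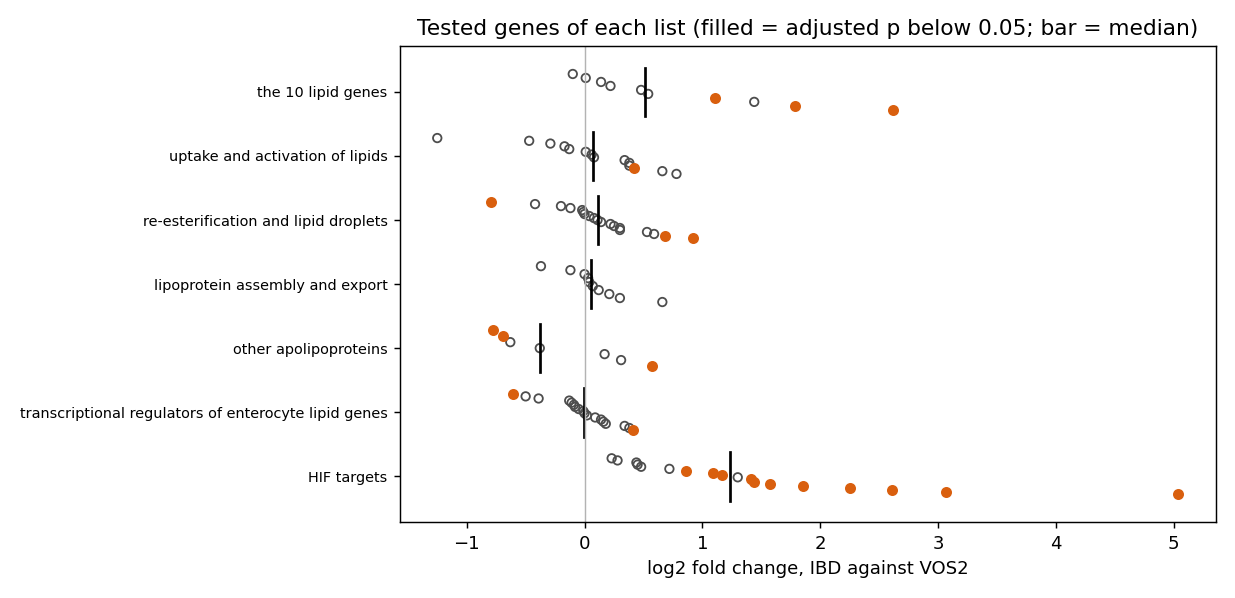
Log2 fold change of IBD against VOS2 for each tested gene of the 10 lipid genes and of 6 related lists; filled points have an adjusted p below 0.05, and bars are medians. The medians are 0.51 for the 10 genes, 1.23 for HIF targets and between -0.38 and 0.11 for the other lists.

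Over the 12 libraries, the genes whose log2 CPM was most like that of each lipid gene were sought among 13131 genes by Pearson's r. All libraries share their table's handling, and IBD replicates 1, 3 and 4 lie apart for several genes, so r is given as a description. APOA4 was most like GPA33 (0.965), SCTR (0.961) and GATM (0.959), and MTTP was most like GATM (0.978), GPA33 (0.971) and TDP2 (0.965). For APOC3 they were PLOD2 (0.987), GABRA2 (0.985) and ATP8B2 (0.984), and for FABP1 SLC7A9 (0.975), TFF1 (0.974) and TPI1 (0.968). The best match was CYP27A1 (0.929) for APOA1, ARMCX4 (0.889) for APOB, FAM228B (0.866) for FABP2, EMX1 (0.928) for DGAT1 and SMG6 (0.945) for DGAT2. Among the lipid genes themselves APOA4 and MTTP had r = 0.96, and FABP1 and DGAT2 r = -0.71.

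VOS1, counted over features near the exons, is described without a test. APOA1 was at 1503, 914, 1110 and 1080 CPM in its replicates 1 to 4, APOA4 at 789, 521, 558 and 275 CPM, and APOC3 at 369, 330, 271 and 187 CPM. MTTP was at 85.1, 86.3, 100 and 21.6 CPM. These means were 15.4, 29.6, 11.2 and 12.1 times those of VOS2, and every VOS1 library was above the highest of NOS1 and VOS2. Over 11850 genes with at least 1 CPM in VOS1 and VOS2 the median ratio was 0.89, and 1.03% had a ratio of 10 or more. Feature length and treatment cannot be told apart in these ratios. The HIF targets summed to 9830 to 12900 CPM in VOS1, against 3720 to 4880 CPM in NOS1 and VOS2 and 4240 to 11100 CPM in IBD, and their part in the VOS1 levels was not tested.

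The other genes of VOS1 stayed nearer to VOS2. FABP1 was at 522, 551, 591 and 380 CPM, 1.31 times VOS2 and 0.619 times IBD by the means. APOB was at 60.8, 66.1, 74.0 and 13.1 CPM, below the other tables, and FABP2 at 2.81, 1.57, 1.28 and 0.888 CPM. DGAT1 was at 239, 187, 227 and 191 CPM, DGAT2 at 44.0, 45.2, 46.7 and 45.1 CPM and MOGAT2 at 2.86, 1.80, 2.65 and 0.782 CPM. Replicate 4 was the lowest VOS1 library for 7 of the 10 genes. Per length over the exons, mean FPKM in VOS1 ran from 1051 for APOA1, 364 for APOA4, 340 for APOC3 and 212 for FABP1 through 51.0 for DGAT1, 14.3 for MTTP, 5.72 for DGAT2 and 3.61 for APOB down to 0.736 for FABP2 and 0.491 for MOGAT2.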

How the data were processed

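RNA of 16 Caco-2 libraries was sequenced. The labels' protocols describe polyT selection of mRNA, fragmentation and libraries amplified by PCR. The submitters' processing notes name hg38 and the tools STAR 2.7.11a, featureCounts 2.0.6, fastp 0.23.4, FastQC 0.12.1 and DESeq2 1.42.0, with no settings. The authors deposited raw counts, whole numbers per gene, in 4 tables, and FPKM, scaled by gene length and library size, in 4 more, with 0 of the 32 value columns left unused here. CPM were computed from the counts and each library's total. Depth sets counting error only, since PCR reads without molecular identifiers are not independent molecules.

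The main test was edgeR 4.0.16 in R 4.3.3, a quasi-likelihood fit of 12 libraries (NOS1, VOS2 and IBD) with TMM scaling and the default filter, adjusted by Benjamini-Hochberg over 14773 genes at 0.05. VOS1 was left out because its counts span shorter features, and a fit with all 16 libraries was an alternative. The test was checked on simulated data. Other alternatives were RLE scaling, library size alone, no filter, a filter of 1 CPM in 4 libraries, DESeq2 1.42.0, limma 3.58.1 on log2(FPKM + 1) and log2(FPKM + 0.1), each pair of tables alone, a block for the replicate number, and libraries left out. The genes named from each list were up to 6 with the largest change past the threshold, or the 2 highest where none passed, and the 3 genes most like each lipid gene. The 10 genes, lists and rules were chosen with earlier results of these data known. Gene positions are from GENCODE v29 (GRCh38), and sequences from RefSeq (GRCh38.p14).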

Additional observations from a re-analysis of the deposited data

Results flagged for a closer look

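Among 160 sets of 4 libraries, 1 gene in 1 table each, 9 had a library whose distance to its nearest neighbour divided by the whole range exceeded Dixon's critical value, where chance gives about 1 in 20. Of the lipid genes, APOB in NOS1 replicate 4 stood at 85.0 CPM, below the 117 to 122 CPM of its table (gap 0.879 of the range). VOS2 replicate 2 stood out for APOC3, at 33.3 CPM against 22.6 to 24.2 CPM (0.854), and for MTTP, at 11.5 CPM against 3.78 to 4.72 CPM (0.879). MTTP passed against VOS2 without that library. NOS1 replicate 1 stood out for 3 HIF targets, with CA9 at 1.25 CPM against at most 0.114 CPM (0.909), NDRG1 at 316 CPM against 130 to 146 CPM (0.913) and LDHA at 1056 CPM against 814 to 837 CPM (0.906). SLC2A1 was low in VOS2 replicate 4, at 1334 CPM against 1567 to 1613 CPM (0.835). GPAM was high in NOS1 replicate 3, at 90.7 CPM against 74.3 to 77.1 CPM (0.83). PPARGC1A in VOS1 was at 0.0711 CPM in replicate 4 and at 0 in the others (1.0).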

How the results depend on the processing

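FABP1 kept its direction and its call in IBD against both tables under every alternative run. The number of the 10 genes called in IBD fell from 3 to 1 in both comparisons with limma on FPKM, at either pseudocount, with the replicate block and without IBD replicates 3 and 4, and against NOS1 also with the 2 tables alone. It ranged from 1 to 4 with 1 library left out. Genes called in IBD against VOS2, 674 in the 12-library fit, were 1072 with DESeq2, 418 with the replicate block, 222 without IBD replicates 3 and 4, and 316 to 961 with 1 library left out (326, 367 and 316 without VOS2 replicate 1, 3 or 4, and 409 and 334 without IBD replicate 3 or 4). Against NOS1, 858 became 1294 without a filter, 1335 with DESeq2, 349 and 397 with limma (pseudocounts 1 and 0.1), 233 with the tables alone, 155 without IBD 3 and 4, 362 without NOS1 replicates 1 and 4, and 305 to 1351 with 1 library left out (1351 and 333 without NOS1 replicate 3 or 4, and 547, 351 and 305 without IBD replicate 1, 3 or 4). In VOS2 against NOS1, 0 became 255 without a filter, 6 with DESeq2, and 0 to 376 with 1 left out (376 without NOS1 replicate 3). The cause was not tested.

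Signs of small differences turned. Within NOS1, replicates 1 and 4 (Spearman correlation of log2 CPM 0.9933) and 2 and 3 (0.9943) were the most alike. Replicates 1 and 3 (0.9769) were the least alike. In VOS2 against NOS1, without NOS1 1 and 4, log2 fold changes were 0.56 for APOA4, -0.058 for APOB, 0.063 for MTTP and 0.40 for MOGAT2. The replicate block gave 0.014 for APOC3 and 0.028 for MOGAT2, and limma at 0.1 gave 0.006 for MOGAT2. With 1 library left out the ranges were -0.226 to 0.038 for APOA1, -0.711 to 0.074 for APOA4, -0.024 to 0.158 for APOB, -0.158 to 0.054 for APOC3, -0.663 to 0.024 for MTTP, -0.356 to 0.082 for FABP2, -0.124 to 0.061 for DGAT1, -0.036 to 0.022 for DGAT2 and -0.185 to 0.304 for MOGAT2. In IBD against VOS2, FABP2 was -0.018 without IBD 3 and 4, and DGAT1 was -0.012 with library size alone, -0.014 and -0.016 with limma at 1 and 0.1, and -0.017 to 0.081 with 1 left out. Against NOS1, FABP2 was -0.017 with limma at 0.1, -0.14 without IBD 3 and 4, -0.036 without NOS1 1 and 4, and -0.082 to 0.37 with 1 left out. DGAT1 was 0.035 without IBD 3 and 4 and -0.099 to 0.085 with 1 left out. None of these passed.

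Deviations of same-numbered libraries had r from -0.07 to 0.19 in VOS2 against NOS1, -0.23 to -0.01 in IBD against VOS2 and -0.16 to 0.18 in IBD against NOS1. Such weak values cannot show whether the replicate number paired the samples. With the replicate block, adjusted p in edgeR was 0.0985 and 0.0741 for APOA4, 0.116 and 0.091 for APOC3 and 0.004 and 0.00718 for FABP1 against VOS2 and NOS1. With 4 libraries a table and IBD libraries that differ by over 10-fold for APOA4 and APOC3, the spread between libraries sets the error of these results. MOGAT2 had 2 to 32 counts in these 12 libraries, and its IBD libraries held 32, 2, 28 and 19.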
